A study of Mus musculus with 2 samples.

Results

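The SR splicing factor genes Srsf1, Srsf2, Srsf3, Srsf4, Srsf5, Srsf6, Srsf7, Srsf9, Srsf10 and Srsf11 were followed at gene and transcript level in the aged mouse cortex. They were selected by symbol, and all 10 were found among 55536 annotated genes, with 85 of the 141767 annotated transcripts. The series is a survey of 1 group: left cerebral cortex of B6CASTF1/J males, first-generation hybrids of B6 and CAST parents, aged 18 to 20 months, with no treatment named. Its total RNA was sequenced as 2 libraries, biological replicates 1 and 2. Both carry 1 donor identifier and separate biosample identifiers, and nothing states that they came from separate animals, so the spread between them may be technical. With 1 group of 2 libraries no test of a condition was possible, and the values below describe these libraries.

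SR proteins carry an RNA recognition motif and a tail rich in arginine-serine repeats, bind exons and help the spliceosome choose splice sites. Many of their own genes can be spliced into messages that are not translated into full-length protein. One form includes an extra exon with a premature stop codon, often called a poison exon, which exposes the message to nonsense-mediated decay, the pathway that degrades messages with early stops. Another keeps an intron and commonly stays in the nucleus. SR proteins are known to promote such splicing of their own transcripts, which limits their amount.

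The annotation gives these genes transcripts of several types: 29 protein coding, 26 retained intron, 15 nonsense-mediated decay and 15 processed transcript, the annotation's type for spliced RNA with no assigned reading frame. The last 3 are called noncoding types here, although a nonsense-mediated decay transcript has an annotated, shortened reading frame. Nonsense-mediated decay forms were annotated in 9 genes and retained intron forms in 8. In 5 genes (Srsf3, Srsf4, Srsf7, Srsf9 and Srsf11) the early stop lay in an exon that no protein-coding transcript of the gene contains. In Srsf6 the exon overlaps, among coding forms, only Srsf6-202, listed at 0 in both libraries.

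The stretches of these exons from their first base to the stop are shown because they separate the nonsense-mediated decay forms measured below from the coding forms. They were read from the GENCODE M21 transcripts (GRCm38, also called mm10), 5′ to 3′ on the gene's strand, with the stop codon in capitals. Srsf3-201 exon 4 of 7 is 456 bases long (chr17:29039454-29039487 shown, plus strand). Srsf7-203 exon 4 of 9 is 460 bases long (chr17:80205054-80205081, minus strand). Srsf6-201 exon 3 of 7 is 268 bases long (chr2:162932815-162932966, plus strand). Srsf9-205 exon 2 of 6 is 358 bases long (chr5:115328347-115328428, plus strand). Srsf4-203 exon 2 of 6 is 207 bases long (chr4:131884276-131884390, plus strand). Srsf11-206 exon 4 of 9 is 109 bases long (chr3:158024209-158024231, minus strand).
Srsf3-201: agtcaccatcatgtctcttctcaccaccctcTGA
Srsf7-203: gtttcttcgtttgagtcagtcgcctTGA
Srsf6-201: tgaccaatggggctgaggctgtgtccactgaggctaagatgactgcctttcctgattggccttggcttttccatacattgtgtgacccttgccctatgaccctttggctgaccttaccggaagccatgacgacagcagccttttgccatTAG
Srsf9-205: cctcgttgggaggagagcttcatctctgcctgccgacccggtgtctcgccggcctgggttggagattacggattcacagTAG
Srsf4-203: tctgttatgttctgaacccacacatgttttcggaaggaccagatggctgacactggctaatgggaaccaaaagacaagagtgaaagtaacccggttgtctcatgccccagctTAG
Srsf11-206: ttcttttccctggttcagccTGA
The stop came within 34 bases of the exon's start in Srsf3, 28 in Srsf7 and 23 in Srsf11-206, and after 82 to 152 bases in the others. Another decay form, Srsf11-212, has its stop in a different exon, within 50 bases of its start. By the first quantification Srsf11-212 held 1.04% and 3.60% of Srsf11 TPM, against 0.72% and 0.69% for Srsf11-206. By the second, Srsf11-212 was at 0 and Srsf11-206 held 5.74% and 4.74%.

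The same introns can be kept whole. In Srsf3, Srsf6 and Srsf7 the intron that holds the early stop exon is retained in Srsf3-204 (2150 bases of intron), Srsf6-204 (1283 bases) and both Srsf7-206 and Srsf7-207 (874 bases). Reads inside these stop exons can come from the retained intron form, from the nonsense-mediated decay form or from RNA not yet spliced. The split between the 2 annotated types rests on the quantifier's model. RNA not yet spliced has no type of its own in the annotation. Its part in the retained intron values below was not tested. Of the 26 retained intron transcripts, 9 contain a whole intron of a protein-coding transcript. These 9 belong to Srsf1, Srsf2, Srsf3, Srsf5, Srsf6 and Srsf7. The junctions of the intron kept by Srsf5-212, the most abundant retained intron transcript of the family, are shown with those of the Srsf6 and Srsf7 introns. Each line is 30 bases, with the first or last 2 intron bases in capitals, and stands at the coordinates given here. The Srsf5 intron (1229 bases, plus strand) has its donor at chr12:80947851-80947880 and its acceptor at chr12:80949080-80949109. The Srsf6 donor is at chr2:162932128-162932157 and the acceptor at chr2:162933411-162933440 (plus strand). The Srsf7 donor is at chr17:80205247-80205276 and the acceptor at chr17:80204373-80204402 (minus strand).
Srsf5 donor: agagtcagctggcagGTttgttgaaataca
Srsf5 acceptor: ttgtcttgtgttaAGgatctcaaagatttc
Srsf6 donor: gctacggaagccgcaGTgagtccttacccc
Srsf6 acceptor: cttcatgtgataaAGgtggtggaggtggat
Srsf7 donor: acgaagaagaagcagGTatttaattaatga
Srsf7 acceptor: taacttaaaaaatAGgtcacgatctagatc
All 6 carry the GT or AG that most introns begin and end with.

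**Figure D1:**
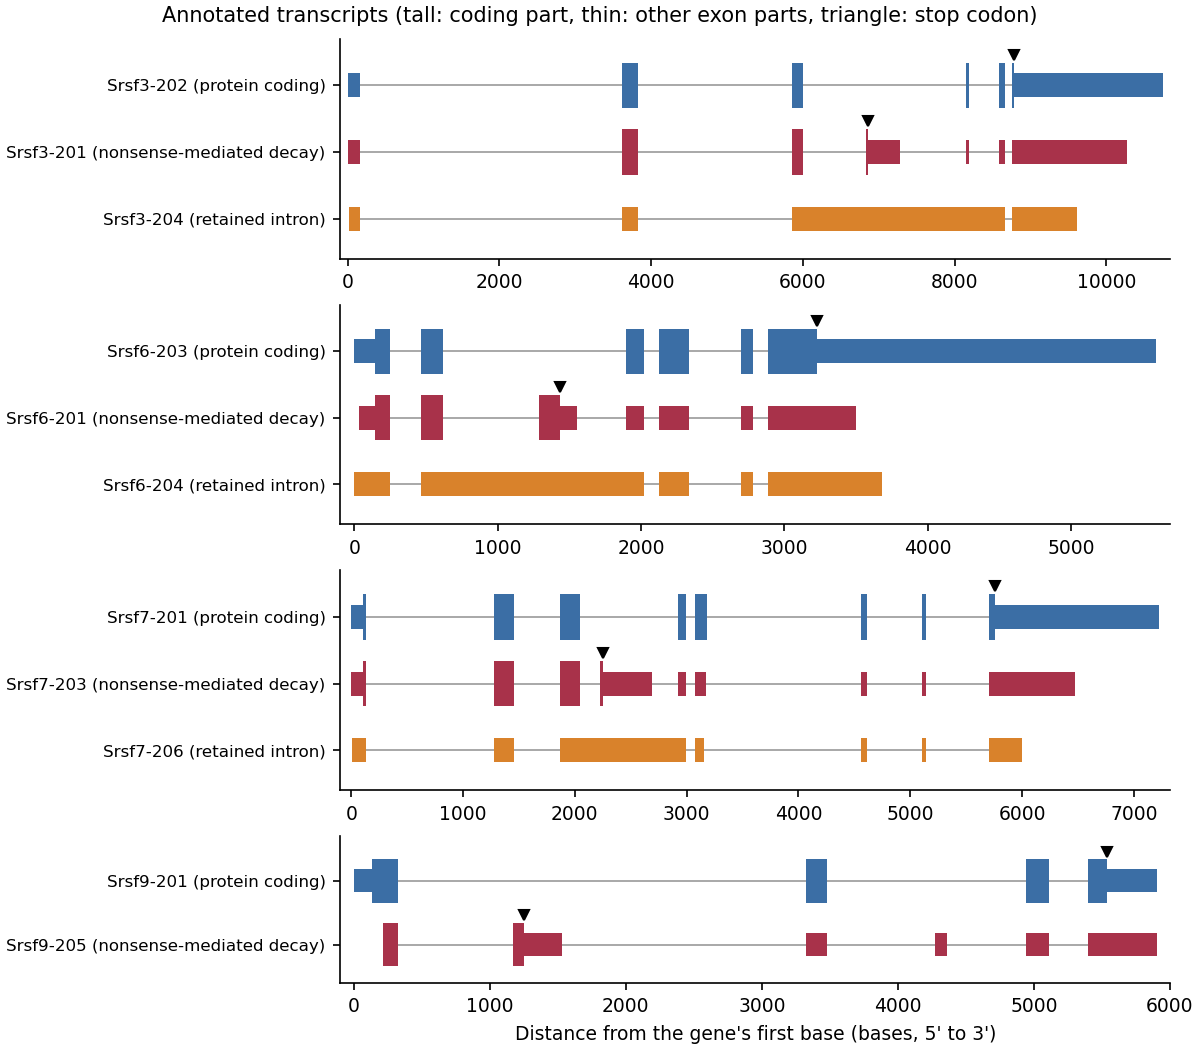
Annotated exons of protein-coding, nonsense-mediated decay and retained intron transcripts of Srsf3, Srsf6, Srsf7 and Srsf9; the x axis is the distance in bases from the first base of the gene, tall boxes are coding parts, thin boxes other exon parts, and triangles stop codons. In each gene the stop of the nonsense-mediated decay form comes before that of the coding form, and in Srsf3, Srsf6 and Srsf7 the retained intron form spans the exon that holds it.

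Replicate 1 held 22827996 expected counts over annotated genes, the quantifier's estimate of reads per gene, and replicate 2 held 29897545. All 20 marker genes of neurons, astrocytes, oligodendrocytes, microglia and endothelium reached a TPM of 1 in each library, where TPM is a level per transcript length scaled to a fixed library total, and the 5 neuronal markers summed to 2924 and 2760 TPM in replicates 1 and 2. By the count rule described below, 4 of 5 neuronal, 3 of 4 oligodendrocyte and 3 of 4 microglial markers were higher in replicate 2, and none was lower. Of 3 endothelial markers 2 were higher and 1 lower, and of 4 astrocyte markers 1 was higher and 1 lower. Over all genes tested, 28.1% were higher and 15.6% lower. The libraries differed more in other RNAs. Of 5 nuclear noncoding RNAs (Malat1, Meg3, Neat1, Miat and Snhg11), 5 were lower in replicate 2 and their sum was 8548 against 5044 TPM. Of 8 markers of striatal projection neurons, a neighbouring tissue, 8 were higher in replicate 2 and their sum was 143 against 315 TPM. Spike-in scaling and the deposited TPM placed the median log2 ratio of replicate 2 over replicate 1 at -0.07 and -0.08 over 12347 genes, against 0.05 after TMM scaling (a trimmed mean of the gene ratios), so calls made against 0 depend on the scaling.

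All 10 SR genes were expressed, at mean levels from 30.03 to 135 TPM with a median of 57.9 TPM. In tissue RNA, a low level in all cells and a higher level in fewer cells cannot be told apart. Srsf5, an SR protein with paired RNA recognition motifs (ENSMUSG00000021134.17, chromosome 12, 80945504 to 80950507), had the highest level, with 151 TPM in replicate 1 and 119 TPM in replicate 2 (135 ± 22.6 TPM, SD, n = 2). Srsf1, the founding member also called SF2/ASF (ENSMUSG00000018379.17, chromosome 11, 88047373 to 88053755), was at 87.2 and 77.2 TPM (82.2 ± 7.06). Srsf11, an SR-related protein once named p54 (ENSMUSG00000055436.18, chromosome 3, 158010473 to 158036639), was at 84.8 and 65.4 TPM (75.1 ± 13.7). Srsf5 lay above every other member in both libraries. Srsf2, also called SC35 and widely used as a marker of nuclear speckles (ENSMUSG00000034120.18, chromosome 11, 116849901 to 116853094), was at 77.6 and 66.6 TPM (72.1 ± 7.72).

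Srsf3, the smallest classical SR protein, and Srsf7 are close relatives that also act in export of messages from the nucleus. Srsf3 (ENSMUSG00000071172.13, chromosome 17, 29032628 to 29043373) was at 60.2 and 56.0 TPM (58.1 ± 2.96). Srsf7 (ENSMUSG00000024097.11, chromosome 17, 80200080 to 80207307) was at 61.4 and 53.9 TPM (57.6 ± 5.28). Srsf6, which with Srsf4 and Srsf5 forms the group with paired RNA recognition motifs and long tails (ENSMUSG00000016921.14, chromosome 2, 162931528 to 162937121), was at 49.8 and 41.2 TPM (45.5 ± 6.04). These values place Srsf3 and Srsf7 side by side in the middle of the family, with Srsf6 below both.

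The last 3 members had the lowest mean levels. Srsf10, a splicing regulator with a known repressor activity when dephosphorylated (ENSMUSG00000028676.17, chromosome 4, 135855747 to 135869908), was at 37.9 and 32.8 TPM (35.3 ± 3.63). Srsf4 (ENSMUSG00000028911.16, chromosome 4, 131873617 to 131901706) was at 31.8 and 29.3 TPM (30.5 ± 1.80). Srsf9, a short-tailed relative of Srsf1 (ENSMUSG00000029538.14, chromosome 5, 115327177 to 115333080), was at 33.0 and 27.1 TPM (30.03 ± 4.21). Neighbours in the order were told apart only where the deposited credibility intervals lay apart, in the same direction, in both libraries. By that rule Srsf5 was above Srsf1, Srsf2 above Srsf3, Srsf7 above Srsf6, and Srsf6 above Srsf10. Srsf1, Srsf11 and Srsf2 could not be separated as neighbours, nor could Srsf3 and Srsf7, nor Srsf10, Srsf4 and Srsf9. Reads of genes on the opposite strand may enter 2 of these levels, since the sources used here do not give strand use in counting: exons of Mettl23 and Mfsd11 cover 15.6% and 9.74% of the exon bases of Srsf2, at 10.2 and 20.5 TPM in replicate 1, and exons of Gm12992 cover 43.0% of those of Srsf4, at 1.70 TPM. An antisense gene over 1.72% of the exon bases of Srsf1 was listed at 0 in replicate 1 and 0.14 TPM in replicate 2.

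**Figure D2:**
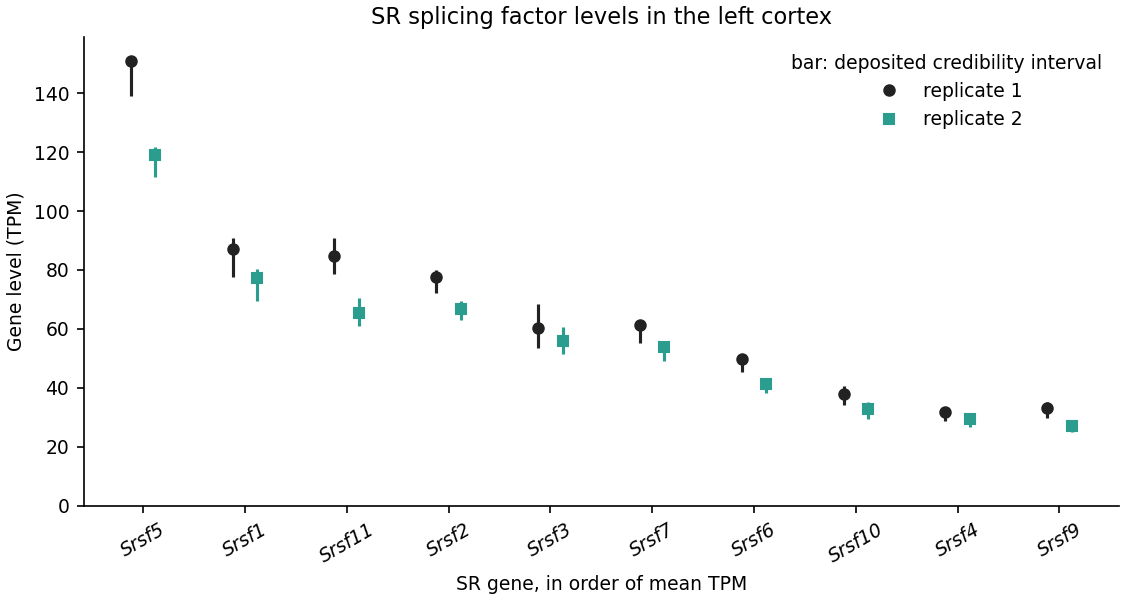
Level of each SR gene in TPM (y axis), in order of its mean, in replicate 1 (circles) and replicate 2 (squares); bars are the deposited credibility intervals of the posterior mean, which need not centre on the plotted TPM. Srsf5 stands at 151 and 119 TPM, above the other 9 genes in both libraries, and Srsf10, Srsf4 and Srsf9 lie between 27.1 and 37.9 TPM.

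Gene levels count every transcript type, and in 5 of 10 SR genes the noncoding types held more than 50% of the gene's TPM in both libraries. These were Srsf3, Srsf5, Srsf6, Srsf9 and Srsf11, and the same 5 passed in the second, kallisto-layout quantification. Among 8331 comparable genes (at least 5 TPM in each library, with at least 1 protein-coding and 1 other transcript), 9.85% passed in the first quantification and 12.1% in the second. The median noncoding share of the SR genes was 48.2% in replicate 1 and 45.8% in replicate 2, against 18.7% and 14.6% over the comparable genes. The retained intron share had a median of 28.8% and 21.8% in the SR genes, against 7.87% and 4.96%. Genes with no annotated retained intron form, Srsf9 and Srsf10 among them, entered these medians with a share of 0. The SR genes have 4 to 19 annotated transcripts each. How far the number of annotated forms enters these contrasts was not tested. The family was not uniform, with mean shares from 20.6% in Srsf4 to 70.3% in Srsf11.

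TPM divides reads by transcript length, so a short transcript with few reads can hold a large share. In shares of expected counts, which lack that division, 3 of 10 SR genes (Srsf5, Srsf9 and Srsf11) had a noncoding majority in both libraries, against 5.35% of comparable genes. With nonsense-mediated decay transcripts counted as coding, 2 of 10 (Srsf5 and Srsf11) did, against 6.1%.

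**Figure D3:**
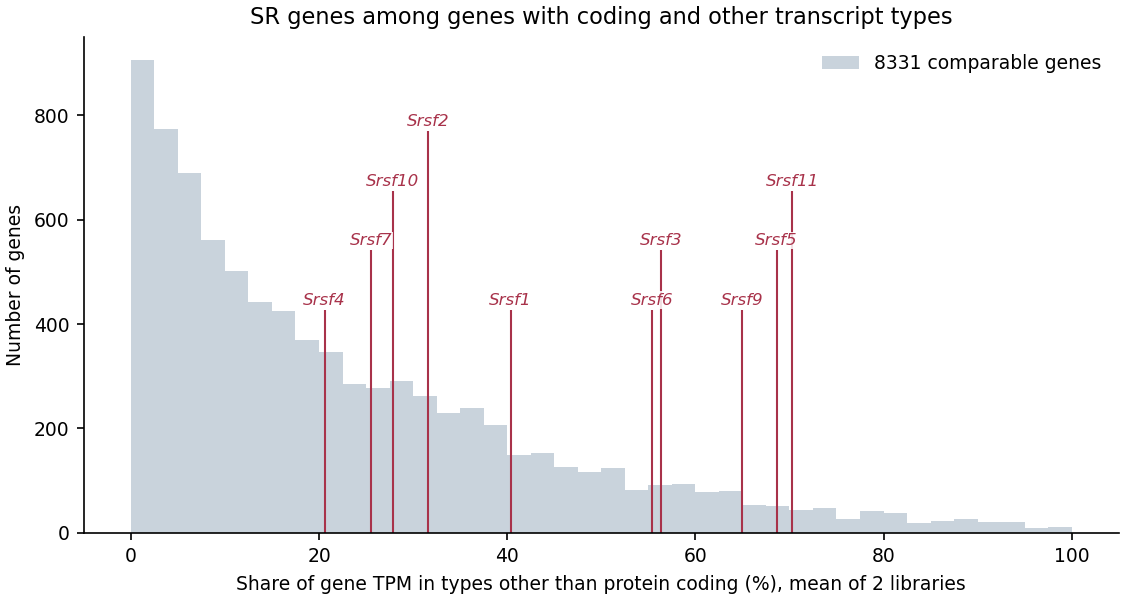
Distribution of the share of gene TPM in types other than protein coding (x axis, percent, mean of both libraries) over 8331 comparable genes (bars, number of genes), with the SR genes as vertical lines whose heights carry no value. Srsf4, Srsf7, Srsf10, Srsf2 and Srsf1 lie between 20.6% and 40.4%, and the other 5 SR genes between 55.4% and 70.3%.

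Transcripts annotated as retained intron made up most of Srsf11, although none of them contains a whole intron of a protein-coding form. They held 70.9% of its TPM in replicate 1 and 62.6% in replicate 2 (57.1% and 56.7% in the second quantification). By the first quantification, 92 of the 8331 comparable genes, Srsf11 included, had as high a mean share or higher. The share of Srsf11 was spread over 8 of its 11 annotated retained intron transcripts, and the other 3 were listed at 0 in both libraries of the first quantification. Srsf11-208 held 21.3% and 17.8%, Srsf11-211 held 11.9% and 10.6%, Srsf11-213 held 12.3% and 9.25% (5.88% and 5.14% in the second quantification), and Srsf11-203 held 10.2% and 10.7%. The leading coding form Srsf11-202 held 19.3% and 22.4%, so Srsf11-208 led in replicate 1 and Srsf11-202 in replicate 2 and in both libraries of the second quantification. A second coding form, Srsf11-209, was listed at 0 in the first quantification and held 11.8% and 12.7% in the second. Its nonsense-mediated decay transcripts held 1.76% and 5.37% on 11.4 and 26.4 expected counts, 5.74% and 4.74% in the second quantification, and 0.73% and 0.72% without transcripts under 400 bases.

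Srsf5 had a noncoding share of 72.9% in replicate 1 and 64.4% in replicate 2, and of 72.9% and 68.3% in the second quantification. The retained intron form Srsf5-212, whose intron junctions are shown above, held 30.6% and 27.9%. The processed transcript Srsf5-206, 886 bases long, held 28.4% and 29.4%. The coding form Srsf5-205 held 14.0% and 22.0%. The processed transcript Srsf5-211 held 8.74% and 3.90%, and 18.7% and 19.6% in the second quantification. In expected counts the retained intron types alone held 59.5% and 52.2% of Srsf5, and the nonsense-mediated decay form was at 0 in both libraries.

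Srsf9 was led by a nonsense-mediated decay form. Srsf9-205, which carries the 358-base exon with the TAG stop shown above, held 59.4% of Srsf9 TPM in replicate 1 and 57.7% in replicate 2, and 53.3% and 50.7% in the second quantification. It led in all 4 estimates, and 55 of the 8331 comparable genes, Srsf9 included, had a nonsense-mediated decay share as high or higher. The median of that share over the comparable genes was 0 in each library. The coding form Srsf9-201 held 33.5% and 36.6%. The processed transcript Srsf9-202 held 7.11% and 5.67%, and 22.8% and 18.9% in the second quantification. No retained intron form is annotated in Srsf9. These shares rest on 377 and 418 expected counts for Srsf9-205 and 175 and 218 for Srsf9-201, the lowest depth in the family.

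Srsf6 divided its TPM between 3 forms, led by the coding one. The coding form Srsf6-203 held 44.6% in both libraries. The nonsense-mediated decay form Srsf6-201 held 24.6% in replicate 1 and 32.6% in replicate 2, and the retained intron form Srsf6-204 held 30.8% and 22.8%. The second quantification gave 28.3% and 36.8% for Srsf6-201 and 31.9% and 24.0% for Srsf6-204. The sum of both noncoding forms was thus 55.4% in each library, while their order was opposite in the 2 libraries. These forms share the bases of the stop exon, as described above.

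Srsf3 had all 3 noncoding types. Its only coding transcript, Srsf3-202, held 39.2% in replicate 1 and 48.2% in replicate 2 by the first quantification, and 22.5% and 28.0% by the second. The nonsense-mediated decay form Srsf3-201, with the 456-base stop exon, held 16.7% and 16.4%, against 32.5% and 24.8% in the second quantification, where it led in replicate 1. The processed transcript Srsf3-209, 518 bases long, held 22.9% and 23.1%, and 8.71% and 7.95% in the second quantification. The processed transcript Srsf3-207 was listed at 0 in the first quantification and held 12.5% and 24.0% in the second. The retained intron form Srsf3-204 held 10.5% and 7.79%. The noncoding majority of Srsf3 was common to both quantifications, but its composition was not.

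The other 5 genes were mostly coding. Srsf1 had a noncoding share of 41.0% in replicate 1 and 39.7% in replicate 2. Its coding forms Srsf1-201, Srsf1-205 and Srsf1-202 held 29.0% and 24.9%, 18.7% and 19.3%, and 11.2% and 16.1%. Its noncoding share lay in 3 short forms of 645 to 896 bases, the retained intron forms Srsf1-203 (17.5% and 15.5%, or 9.29% and 5.70% in the second quantification) and Srsf1-206 (11.8% and 10.7%) and the nonsense-mediated decay form Srsf1-204 (11.7% and 13.5%). In expected counts the noncoding types of Srsf1 held 12.4% and 12.3%. Srsf10 was similar in this respect, with 26.9% and 28.8% of TPM but 5.89% and 6.78% of expected counts in processed transcripts, led by Srsf10-207 (717 bases, 11.95% and 14.6% of TPM). The coding forms of Srsf10 were led by Srsf10-204 (31.4% and 31.9%), followed by Srsf10-205 (20.5% and 16.9%), Srsf10-202 (12.5% and 13.3%) and Srsf10-203 (8.73% and 9.18%).

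By the first quantification Srsf2 was nearly a mixture of 2 forms. The coding form Srsf2-201 held 57.6% in replicate 1 and 64.5% in replicate 2, and the retained intron form Srsf2-203 held 35.6% and 27.6%. Its expected counts gave 35.3% and 27.4% for the retained intron type, close to its share of TPM. In the second quantification Srsf2-201 held 52.6% and 59.1% and Srsf2-203 held 33.9% and 24.8%. The processed transcript Srsf2-205, at 0 in the first, held 8.89% and 10.4% there. The nonsense-mediated decay forms of Srsf2 were listed at 0 in both libraries of the first quantification, but held 4.95% and 6.54% by its posterior mean TPM.

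Srsf7 had noncoding shares of 28.7% and 22.3%, almost all in retained intron forms. Srsf7-206 held 19.6% and 16.1%, and 6.67% and 10.1% in the second quantification. Srsf7-207, which keeps the same intron, held 5.76% in replicate 1 and was listed at 0 in replicate 2, against 24.2% and 9.73% in the second quantification. Srsf7-203, with the 460-base stop exon, was nearly absent: the nonsense-mediated decay type held 0.36% and 1.48% on 6.16 and 31.2 expected counts. The 2 quantifications chose different coding forms. Srsf7-201 led the first with 35.3% in each library, followed by Srsf7-208 with 28.7% and 34.9%. Srsf7-202 led the second with 46.4% and 46.1% and held 1.09% and 2.60% in the first, while Srsf7-201 held 4.54% and 4.33% and Srsf7-208 5.99% and 15.8% in the second.

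Srsf4 had the lowest noncoding share, 21.2% and 20.0%. Its single coding form Srsf4-202 held 78.8% and 80.0%. Its nonsense-mediated decay forms, which carry the stop exon shown above in whole or in part, held 12.2% and 14.0%, and its retained intron form held 8.99% and 5.98%.

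Of the 85 transcripts, 18 were listed at 0 in both libraries of the first quantification. The leading transcript was the same in all 4 estimates in 6 of 10 SR genes, against 67.3% of comparable genes. Those 6 were Srsf1, Srsf2, Srsf4, Srsf6, Srsf9 and Srsf10, and of them Srsf9 had a leader that was not protein coding. In the first quantification the leader was noncoding in both libraries in 2 of 10 SR genes (Srsf5 and Srsf9), against 6.67% of comparable genes.

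**Figure D4:**
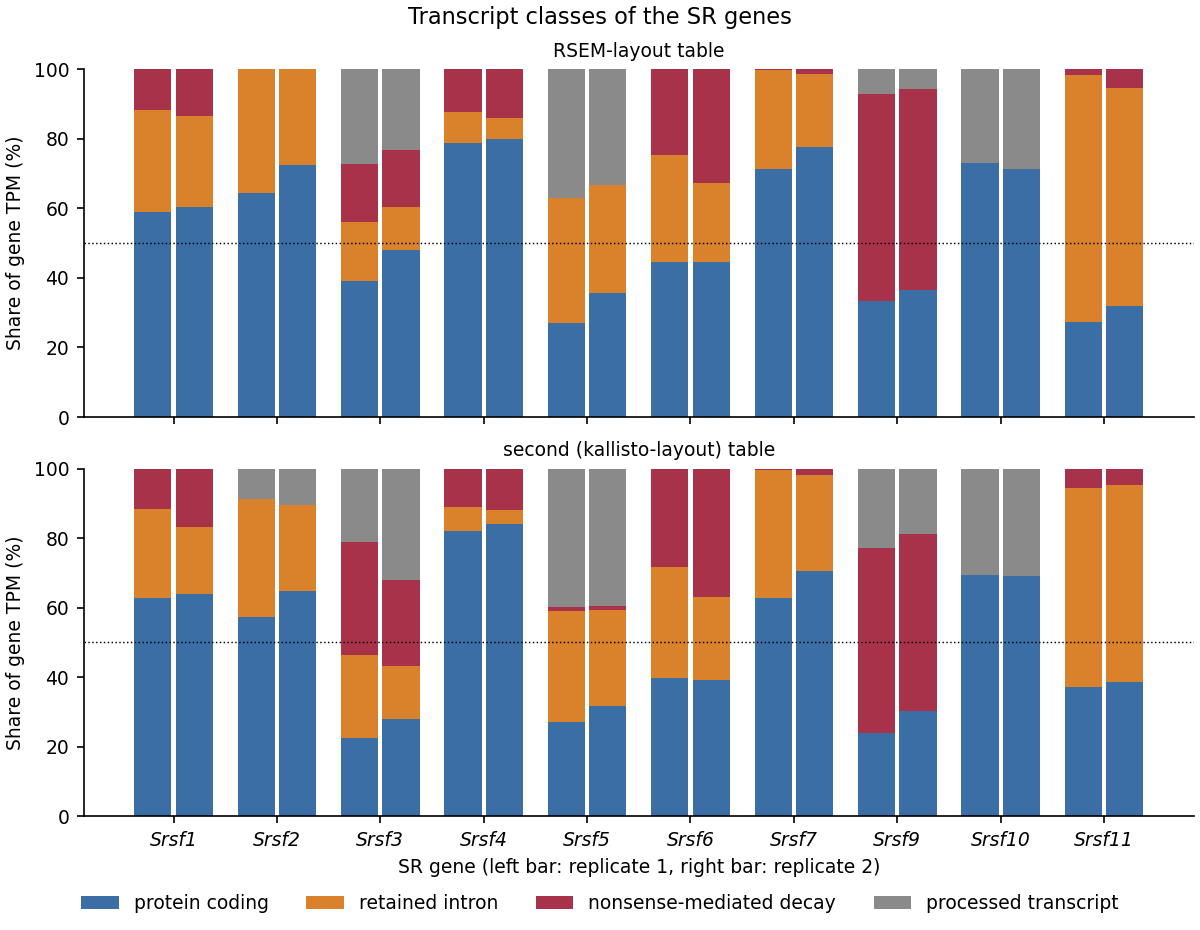
Share of gene TPM (y axis, percent) in protein-coding, retained intron, nonsense-mediated decay and processed transcripts for each SR gene, in replicate 1 (left bar) and replicate 2 (right bar), from the RSEM-layout table (top) and the second table (bottom); the dotted line is 50%. The coding part stays under the line in both libraries of both tables in Srsf3, Srsf5, Srsf6, Srsf9 and Srsf11.

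Gene levels differed between the libraries by at most 1.24-fold after TMM scaling. By count, 4 of 10 SR genes were lower in replicate 2 beyond counting error, meaning that the 95% exact interval of the count ratio excluded 0 on the log2 scale, and none was higher. Among 12347 genes whose counts averaged at least 100, 15.6% were lower and 28.1% higher by the same rule. Srsf11 had 2322 and 2385 expected counts and a log2 ratio of -0.30 (interval -0.39 to -0.22), which is 1.24-fold lower. Srsf5 had 3620 and 3931 expected counts and a ratio of -0.22 (-0.29 to -0.16). Srsf6 stood at -0.19 (-0.28 to -0.10) and Srsf10 at -0.12 (-0.22 to -0.01). The interval of Srsf10 included 0 in the second quantification, where Srsf3 was called higher at 0.14 (0.05 to 0.23), as were 35.7% of 12694 genes. The median over the 10 genes was -0.11, against 0.05 over all genes tested. Each scaling moves all genes by 1 constant, so the count of lower members and its background move together. The count was 9 of 10 with spike-in scaling (34.7% of all genes), 9 with deposited TPM scaling (36.4%) and 8 with TMM factors from genes averaging at least 10 counts (18.1%). With intervals compared with the all-gene median instead of 0, a reference chosen after seeing the data, 8 of 10 were lower, against 21.6% of genes, and 0 were higher, against 18.5%. Srsf3 lay 0.017 above the all-gene median under every scaling, although its ratio against 0 was 0.07 with TMM, -0.058 with spike-in and -0.066 with deposited TPM scaling.

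Divided by transcript type, the retained intron forms were mostly lower in replicate 2. Their summed counts were lower in replicate 2 in 7 of 8 SR genes, against 70.9% of 2165 genes with enough counts in that type, and higher in 0 of 8, against 4.39%. Srsf7 had 438 and 362 expected counts in retained intron forms, a log2 ratio of -0.62 (-0.82 to -0.41). Srsf6 had 638 and 543 (-0.58, -0.74 to -0.41), and Srsf4 had 127 and 109 (-0.56, -0.95 to -0.18). Srsf11, Srsf2, Srsf3 and Srsf5 stood at -0.48, -0.45, -0.43 and -0.41. Srsf1 stood at -0.20 with an interval from -0.46 to 0.06.

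The protein-coding forms had calls in both directions. Their summed counts were higher in replicate 2 in 2 of 10 SR genes, against 38.1% of 8087 genes, and lower in 2 of 10, against 10.5%. Srsf3-202, the only coding form of Srsf3, had 883 and 1405 expected counts, a log2 ratio of 0.33 (0.20 to 0.45). The coding forms of Srsf5 stood at 0.19 (0.06 to 0.31). Those of Srsf6 stood at -0.14 (-0.25 to -0.02) and those of Srsf10 at -0.13 (-0.24 to -0.02). After TMM scaling, the lower gene-level value of Srsf5 thus held coding forms with a higher ratio and retained intron forms with a lower one. The calls of all transcript types were made with this scaling only, and like those of the genes they depend on the scaling.

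Nonsense-mediated decay forms had enough counts in 4 SR genes. Of these, 1 was higher in replicate 2 (Srsf6-201, 285 and 436 expected counts, 0.27, 0.05 to 0.49) and none was lower, against 27.1% and 32.6% of 709 genes. Srsf9-205 stood at -0.19 (-0.40 to 0.01), Srsf1 at 0.15 (-0.19 to 0.50) and Srsf3 at 0.00 (-0.20 to 0.20). In the processed transcript type, 1 of 2 SR genes was lower (Srsf5, -0.28, -0.45 to -0.12), against 38.1% of 701 genes, and 0 of 2 was higher, against 19.5%.

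**Figure D5:**
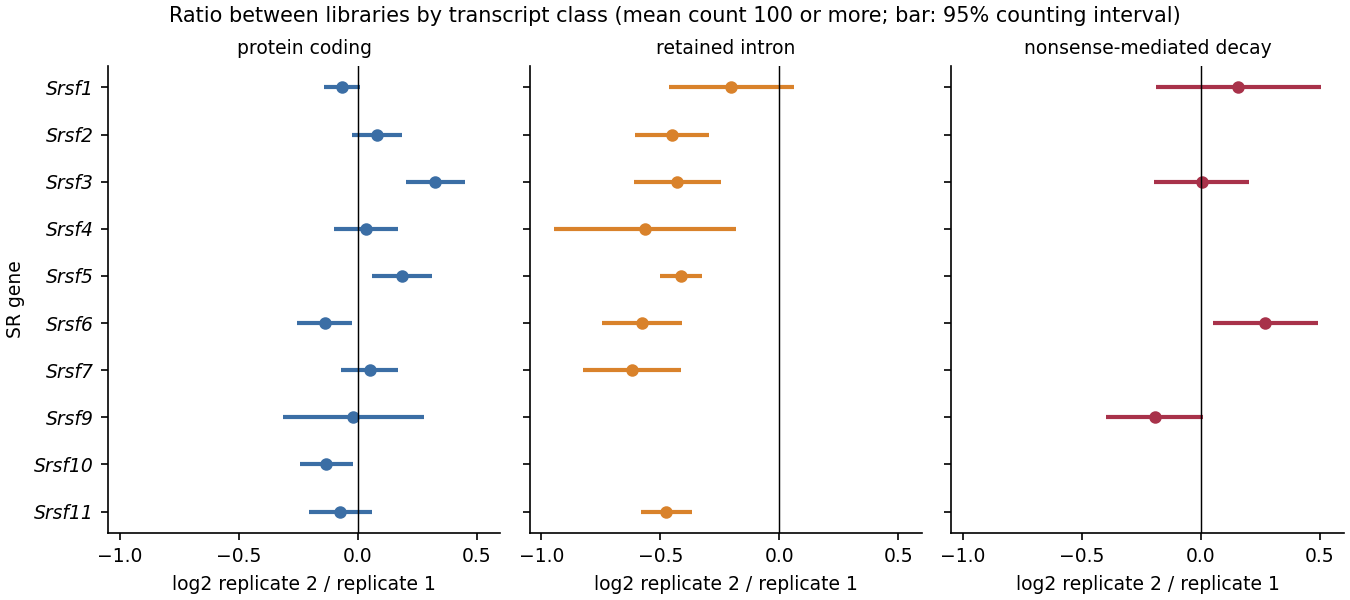
Log2 ratio of replicate 2 over replicate 1 (x axis) of the summed expected counts of protein-coding, retained intron and nonsense-mediated decay transcripts of each SR gene whose counts in that type averaged at least 100; bars are 95% counting intervals after TMM scaling. The retained intron values lie between -0.62 and -0.20, and the coding values between -0.14 and 0.33.

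A share within a gene does not depend on library scaling. The retained intron share was lower in replicate 2 in 8 of 8 SR genes that have such forms at a mean share of 5% or more, in both quantifications, against 82.3% of 4655 comparable genes in the first and 79.0% in the second. The shift had a median of -6.09 percentage points in the SR genes and -4.41 in the comparable genes. The noncoding share as a whole was lower in 9 of 10 SR genes, and in 8 of 10 by the second quantification, against 73.0% and 69.6% of comparable genes. The nonsense-mediated decay share was higher in 3 of 5 SR genes, against 48.9% of 1453 comparable genes, and in 3 of 6 by the second quantification, against 46.9% of 1786. The shift in retained intron share is thus a property of most genes in these libraries, the SR genes among them. Over the comparable genes that are not SR genes, summed retained intron counts had a log2 ratio of -0.43, nonsense-mediated decay counts -0.02 and protein-coding counts 0.06. Malat1, a nuclear RNA, stood at -0.67 and Meg3 at -0.74 in the same comparison. The part that nuclear RNA content or the difference in striatal markers had in the SR values was not tested.

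The genes that act with the SR proteins were described from lists of splicing genes. The kinases that phosphorylate SR proteins and the importer Tnpo3 had the highest median noncoding share of the lists other than the SR genes. It was 56.7% by the first quantification and 38.4% by the second, over 9 comparable genes. The median of the SR genes, 47.9% and 49.7%, lay below that of this list by the first quantification and above it by the second. A noncoding majority in both libraries was present in 5 of 9 by the first quantification and 3 of 9 by the second. Among all comparable genes the shares with such a majority were 9.85% and 12.1%. Clk1, a nuclear kinase of SR proteins, had noncoding shares of 84.0% and 87.4% at 82.6 and 51.0 TPM. Prpf4b, a kinase of the spliceosome, had shares of 82.4% and 81.6%. Srpk2, a cytoplasmic SR protein kinase, had the highest level at 91.1 and 83.7 TPM, with noncoding shares of 49.6% and 46.6%, or 35.3% and 33.0% in the second quantification. Of 9 kinase and import genes with enough counts, 5 were lower in replicate 2 and none was higher, against 15.6% and 28.1% of all genes, and Clk1 stood at -0.51 (-0.60 to -0.42).

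The SR-related proteins and the Tra2 factors, which carry arginine-serine repeats outside the classical family, had a median noncoding share of 31.3% over 24 comparable genes. A majority was present in 1 of 24 by the first quantification (Arglu1, 67.3% and 57.3%) and 5 of 24 by the second. Of comparable genes, 9.85% had a majority by the first and 12.1% by the second. Srrm2, a large scaffold protein of nuclear speckles, had the highest level, 328 and 236 TPM, with shares of 42.6% and 40.1%. Acin1, a protein deposited on spliced messages, had shares of 54.8% and 48.4%. Rsrp1 was at 126 and 107 TPM, with shares of 43.3% and 49.7%, and of 76.6% and 81.8% in the second quantification. Of 25 genes, 13 were lower in replicate 2 and 1 was higher, against the same 15.6% and 28.1%. The core splice site factors had a majority in 2 of 12 genes by the first quantification and 0 of 12 by the second. Their background was the same 9.85% and 12.1%, and their median share was 30.5%. Of these 12 genes, 4 were lower in replicate 2 and 2 were higher, against 15.6% and 28.1% of all genes. Snrnp70, a protein of the U1 particle that binds 5′ splice sites, was at 219 and 160 TPM with shares of 62.1% and 55.9% (42.7% and 38.8% in the second quantification), and Sf1, which binds the branch point, was at 101.1 and 90.8 TPM. Prpf3, a protein of the tri-snRNP, had shares of 73.1% and 52.2%, and of 66.8% and 47.6% in the second quantification.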

How the data were processed

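The 10 genes and the gene lists were chosen with earlier results of these data known. Each library had a gene table and a transcript table in the RSEM column layout and a second transcript table in the kallisto column layout, made on mm10 with GENCODE M21, as the deposited file lists state. The aligner and tool versions are not stated in them. Expected and estimated counts, as deposited, are reads divided among transcripts by a model, not normalized. The deposited TPM values are per length, scaled to the same total over all listed features. The deposited upper bound of the TPM credibility interval was treated as a signal; the probability it covers is not stated. The deposited percent of gene TPM per transcript was used for single transcripts. The reference does not hold CAST variants, and their effect on the counts was not measured.

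Shares by transcript type were summed from TPM. Counts were rounded, 0.5 was added, and ratios were scaled with TMM (edgeR 4.0.16, R 4.3.3; log2 offset 0.34). The 95% Clopper-Pearson intervals cover counting error only; their calculation was tested on simulated data. DESeq2 1.42.0 size factors were an alternative. Every member was named, with its leading transcripts and those with a mean share of 10% or more; of each list, at most 4 genes were named, the 2 highest by TPM and the 2 highest by noncoding share. 1 gene that this rule would name is not reported here. Protein sequences were not used here. The gene table included spike-ins and tRNA entries, which stayed out of library sizes.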

Additional observations from a re-analysis of the deposited data

How the results depend on the processing

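No paired analysis was possible because the series has 1 group. The median level of the SR genes was 57.9 TPM, 80.2 in the second quantification, 127 when TPM was rescaled to nuclear protein-coding genes, and 54.9 to 60.8 with 1 library left out. The median noncoding share was 47.9%, against 49.7% in the second quantification, 37.6% in expected counts, 27.8% with nonsense-mediated decay counted as coding, and 45.8% to 48.2% with 1 library left out. Of 10 genes, 5 had a noncoding majority (9.85% of comparable genes). The number was 3 in expected counts (5.35%) and 2 with nonsense-mediated decay counted as coding (6.1%). At a threshold of 60% it was 3. Leaving out either library gave 5, an alternative chosen after seeing the data. Shares of comparable genes are not given here for the threshold of 60% or for single libraries. The number lower in replicate 2 was 4 (15.6% of all genes), and 9 with spike-in scaling (34.7%), 9 with deposited TPM scaling (36.4%), 8 with TMM factors from genes averaging at least 10 counts (18.1%) and 8 against the all-gene median (21.6%), the last chosen after seeing the data. With DESeq2 size factors the number lower was 5, and in the second quantification it was 3. Shares of all genes are not given here for these settings. The number higher was 0 (28.1% of all genes), and 1 in the second quantification (35.7%). The ratio of Srsf3 against 0 was 0.07 with TMM, -0.058 with spike-in and -0.066 with deposited TPM scaling; these scalings move all genes alike, and Srsf3 lay 0.017 above the all-gene median in each. That of Srsf4 was -0.02, and 0.039 in the second quantification, where the cause was not tested. Single transcripts share most of their bases, and with 591 and 672 expected counts Srsf9 is the least precise gene.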

Other observations

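Other splicing regulators of the cortex were measured in the same way. The hnRNP and PTB proteins, many of which repress exons, had a noncoding majority in 2 of 17 comparable genes by the first quantification. By the second it was 4 of 17, and the median share was 32.6%. Among all comparable genes, 9.85% had a majority by the first quantification and 12.1% by the second. In replicate 2, 5 of the 20 genes in this list were lower and 6 higher, against 15.6% and 28.1% of all genes. Hnrnpu, a nuclear scaffold protein, had noncoding shares of 79.6% and 81.2% at 198 and 184 TPM, and its nonsense-mediated decay types held 55.3% and 59.9%. Hnrnph1 had shares of 62.7% and 56.4%. Hnrnpk, the most abundant of them at 261 and 258 TPM, had shares of 23.1% and 23.5% (10.5% and 7.36% in the second quantification), and Hnrnpa2b1 was at 223 and 188 TPM.

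The neuronal splicing regulators had a median share of 13.2%, and 0 of 13 had a majority in either quantification. Of all comparable genes, 9.85% had a majority by the first quantification and 12.1% by the second. In replicate 2, 4 of the 16 neuronal regulators were lower and 2 higher, against 15.6% and 28.1% of all genes. Celf4, at 242 and 234 TPM, had shares of 27.3% and 25.4% (13.3% and 17.3% in the second quantification), and Celf2, at 209 and 163 TPM, had 33.7% and 27.8%. Mbnl2 had shares of 29.7% and 29.5%, and of 10.4% and 6.41% in the second quantification. The factors of nonsense-mediated decay itself had a median share of 14.2%, with a majority in 0 of 12 by the first quantification and 1 of 12 by the second. Of 14 such genes with enough counts, 5 were higher and 1 was lower in replicate 2, against 28.1% and 15.6% of all genes. Smg1, the kinase that phosphorylates Upf1, was at 39.97 and 30.6 TPM. By the first quantification Smg9 had the highest noncoding share in this list, 47.9% and 42.6% (45.2% and 40.7% in the second), all of it in retained intron forms, followed by Rbm8a with 37.1% and 39.5% (64.3% and 63.2% in the second, above Smg9). The differences between lists are descriptions and were not tested.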
